A study of Homo sapiens with 12 samples.

Results

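All-line regions are stretches of the genome in which KDM2B peaks of all 7 leukaemia cell lines of the study came together. Overlapping peaks of the 7 deposited lists, by 1 bp or more, were merged, and a merged region was kept when it held a peak of every line. The members were thus selected on the presence of called peaks, and 709 of 29071 merged regions, 2.44%, met the rule. The lines were DND41, HPB-ALL, JURKAT and SIL-ALL, which derive from T-cell acute lymphoblastic leukaemia (T-ALL), and K562, REH and SUP-B15. K562 was derived from chronic myeloid leukaemia at the stage of blast crisis. REH and SUP-B15 stand for acute lymphoblastic leukaemia of B-cell precursors (B-ALL). All were grown in IMDM with fetal bovine serum, with no treatment named in the labels, and were immunoprecipitated with the same anti-KDM2B antibody. The labels give no lineage, which is background knowledge of the named lines. Each line is a single culture with 1 KDM2B library and no replicate, so differences between lines include differences between libraries. How many reads stand behind a list is unknown. The set also lists 5 input libraries, which were not used here.

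KDM2B is a histone demethylase with a JmjC domain. Its CXXC zinc finger binds unmethylated CpG dinucleotides, which places it at CpG islands, many of them at promoters. There it brings in the variant Polycomb complex PRC1.1, with BCOR, PCGF1 and RING1 proteins, which attaches ubiquitin to histone H2A. In blood formation it is known both for the maintenance of stem and progenitor cells and for roles in leukaemia.

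Regions that more lines had in common were wider and held higher-ranked peaks, which is in part built into the merging, since every added peak can lengthen a region. Each peak was ranked by its score within its own list, with percentile 100 as the top of the list, and a line's value in a region is that of its best peak there. The median width was 196 bp for regions of 1 line, 753 bp for regions of 4 lines, 1287 bp for regions of 6 lines and 1695 bp for all-line regions. Averaged over the lines present, the percentile had a median of 30.4 in regions of 1 line, 71.2 in regions of 6 lines and 79.5 in all-line regions. All-line regions ranged from 505 to 7958 bp, with quartiles of 1305 and 2191 bp. Their summed length was 1.31 Mb, and 62 of them reached 3000 bp. These values come from the same peaks that chose the regions and are descriptions.

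**Figure D1:**
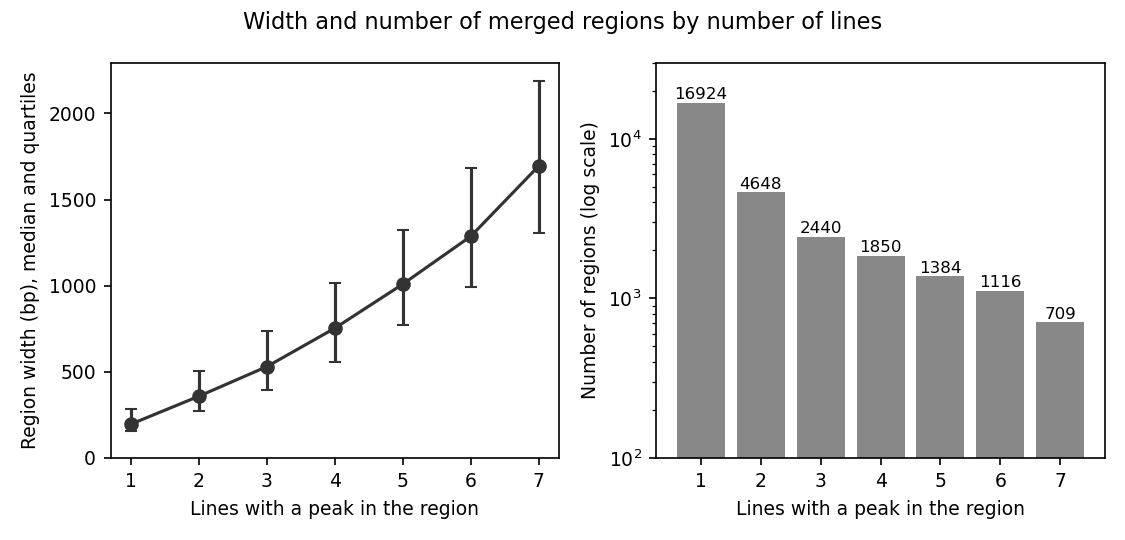
Left, width of merged regions in bp (points, medians; bars, quartiles) by the number of lines with a peak in them; right, number of regions on a log scale. Median width was 1695 bp in the 709 all-line regions and 196 bp in the 16924 regions of 1 line.

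The most strongly ranked all-line region lay in 16p11.2 (hg19, chromosome 16, 30668770 to 30672892). Its scores were 3100 in each of DND41, HPB-ALL, JURKAT and SIL-ALL, against 2703 in SUP-B15, 1451 in K562 and 2406 in REH. It held the top peak of SUP-B15 and a peak at the top score of JURKAT and SIL-ALL, and its lowest percentile was 99.9, in K562. The band holds FBRS, a gene of the AUTS2 family known from variant Polycomb complexes. Scores of exactly 3100 were shared by 2 to 14 peaks in each T-ALL list and by none in the other lists. No source used here says whether 3100 is a ceiling of the score, and peaks at that score cannot be ranked among themselves. It was not the upper limit in DND41 and HPB-ALL, whose highest scores were 3186.6 and 3176. In JURKAT and SIL-ALL the highest score was 3100. Genes named with a band here and in what follows are background on that band: the files and tables used give no gene positions in hg19, so whether a region overlaps a gene was not determined.

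In the 16p13.3 region (chromosome 16, 3199300 to 3201165) the scores were 3050.3 in SIL-ALL, 1209 in DND41, 1164 in JURKAT and 1089.7 in HPB-ALL, against 806 in SUP-B15, 870.2 in K562 and 875 in REH. Every line had it at percentile 98.7 or above. In the 17q25.3 region (chromosome 17, 75953200 to 75956715) they were 3100 in SIL-ALL, 1799 in DND41, 1134 in JURKAT and 3064 in HPB-ALL, against 424 in SUP-B15, 1134 in K562 and 359 in REH. SUP-B15 stood lowest there, at percentile 98.0. The 1q25.3 region (chromosome 1, 181057490 to 181059681), in the band of the immediate early gene IER5, scored 3100 in SIL-ALL, 1523 in DND41, 998 in JURKAT and 2225 in HPB-ALL, against 836 in SUP-B15, 633 in K562 and 249 in REH. REH was lowest at percentile 97.6. The 10q22.2 region (chromosome 10, 76583895 to 76586486), in the band of the histone acetyltransferase gene KAT6B, scored 2872 in SIL-ALL, 2177 in DND41, 915 in JURKAT and 1619 in HPB-ALL, against 623 in SUP-B15, 571 in K562 and 216 in REH. REH was lowest in it, at percentile 96.6. Scores from different lists have no stated common scale. Here and in what follows they are printed for each line, and only ranks within a list can be compared between lines.

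Of the 10 regions with the highest mean percentile, the next lay in 19q13.42 (chromosome 19, 55987767 to 55988885; mean 98.9), 3p14.3 (chromosome 3, 58222617 to 58224523; 98.5) and 2p23.2 (chromosome 2, 28612728 to 28616994; 98.5). The 2p23.2 band is that of FOSL2, which encodes an AP-1 transcription factor. The remaining regions were in 9q22.33 (chromosome 9, 102581664 to 102587265; mean 98.4) and 3q27.3 (chromosome 3, 186545213 to 186545762; mean 98.3). The 3q27.3 region was 550 bp long with 1 peak from each line, whereas the 9q22.33 region spanned 5602 bp with 30 peaks. In all, 24 of the 709 regions stood at or above percentile 90 in every line, and 291 at or above percentile 50. At the other end, 71 regions were under percentile 10 in at least 1 line.

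The lowest mean percentiles were found in 9p13.2 (chromosome 9, 37800606 to 37801525; mean 38.7), 11p15.5 (chromosome 11, 568300 to 569443; 39.3) and 3q29 (chromosome 3, 196466697 to 196467653; 41.4). None of the 3 had a base under peaks of all 7 lines. In the 9p13.2 region SIL-ALL stood at percentile 85.3, while REH was at 13.6 and SUP-B15 at 10.8. Presence in every list therefore included sites near the bottom of several lists.

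A typical all-line region ranked high in the T-ALL lists and less high in the others. The median percentile was 92.6 in SIL-ALL, 93.0 in DND41, 89.1 in JURKAT and 92.4 in HPB-ALL, against 81.6 in SUP-B15, 74.1 in K562 and 75.4 in REH. The T-ALL medians averaged 91.8 ± 1.81 (SD, n = 4) and the others 77.0 ± 3.98 (SD, n = 3), with no overlap. No test is given, because the scores decide which peaks are listed and the T-ALL lists are longer. With 5942 top-scored peaks taken from every list, merging and ranking were done anew and gave 402 all-line regions. Over these the medians were 84.0 to 89.4 in T-ALL lines and 77.3 to 83.1 in the others. The difference was 8.11 percentile points there and 14.7 over the 709 regions of the full lists. Among the 709 regions the mean percentile was higher over the T-ALL lines in 594 and higher over the other lines in 115. The lowest of the 7 percentiles fell to DND41 in 25 regions, to SIL-ALL in 42, to HPB-ALL in 47 and to JURKAT in 63, against 142 for SUP-B15, 183 for REH and 207 for K562.

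**Figure D2:**
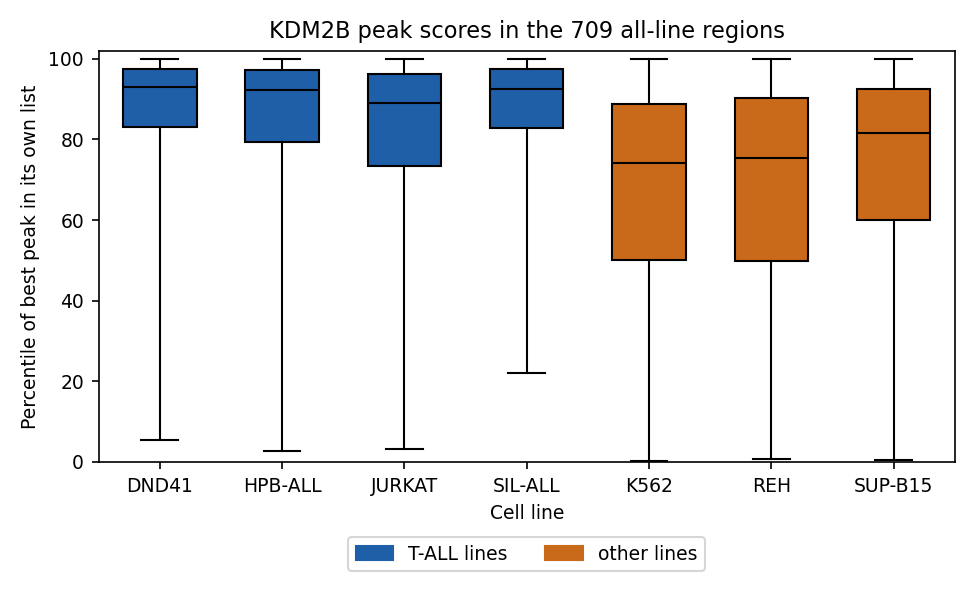
Percentile of the best peak within its own list (0 to 100) in the 709 all-line regions for each line; boxes show quartiles and median, whiskers the lowest and highest region. Medians were 89.1 to 93.0 in the T-ALL lines (blue) and 74.1 to 81.6 in the other lines (orange).

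Regions with the largest surplus in the T-ALL lines were near the floor of the SUP-B15 and REH lists. The largest lay in 2p23.3 (chromosome 2, 27651181 to 27652362), with scores of 543 in SIL-ALL, 320 in DND41, 236 in JURKAT and 261 in HPB-ALL, against 55.3 in SUP-B15, 64.2 in K562 and 50.9 in REH. The mean percentile differed there by 72.5 points. A further region of 1q25.3 (chromosome 1, 182359999 to 182361185) differed by 70.5 points, one in 5q11.2 (chromosome 5, 55290130 to 55290707) by 67.3, one in 1p22.2 (chromosome 1, 90097983 to 90099980) by 66.7 and one in 6q21 (chromosome 6, 111196187 to 111197879) by 62.6. In the 1p22.2 region K562 stood at percentile 72.2, apart from REH at 12.7 and SUP-B15 at 7.0, so the surplus there was over the B-ALL lines in the main. Of these regions only that of 5q11.2 had a stretch under peaks of all 7 lines, of 14 bp. In the rest the percentiles may come from peaks at different places in the region.

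Differences in the reverse order were smaller in size. In 11q12.3 (chromosome 11, 62312887 to 62314686), the band of the scaffold protein gene AHNAK, the mean percentile differed by -48.6 points. Scores were 181 in SIL-ALL, 74.5 in DND41, 265 in JURKAT and 81.1 in HPB-ALL, against 574 in SUP-B15, 263 in K562 and 804 in REH. JURKAT, at percentile 93.7, stood with the other lines and not with the T-ALL lines. The next differences were -36.5 points in 7q36.1 (chromosome 7, 150929162 to 150930767), -33.1 in 12q24.31 (chromosome 12, 124457700 to 124458926), -26.1 in 3p22.3 (chromosome 3, 32611315 to 32612375) and -24.7 in 15q21.2 (chromosome 15, 52043644 to 52044533). In the last, SIL-ALL at percentile 94.9 was above all the other lines. These regions were chosen for the difference, which is therefore a description. None of them had a base under peaks of all 7 lines, so the percentiles may come from peaks at different places in a region.

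Ranks within the set were only loosely related between lines. Over the 709 regions, the Spearman correlation of percentiles ran from 0.34 to 0.49 over the 6 pairs of T-ALL lines, highest for DND41 with JURKAT. It ran from 0.22 to 0.35 over the 3 pairs among K562, REH and SUP-B15, and from 0.19 to 0.37 over the 12 pairs between the sides. REH with SUP-B15 had 0.35 and SIL-ALL with K562, the lowest pair, 0.19. Each list cut to the same length gave 402 all-line regions. Over these, T-ALL pairs averaged 0.41, the pairs among the others 0.24 and the pairs between sides 0.28. The regions within a line share its library and depth, so these are descriptions across sites. Within 1 region the percentiles of the 7 lines spanned a median of 53.2 points.

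Each line had a region in which it fell far below the others. K562 was at percentile 0.168 in 10p11.23 (chromosome 10, 30722377 to 30723834), the band of the kinase gene MAP3K8, where the mean of the other 6 lines was 92.6. REH stood at 7.24 in 13q14.11 (chromosome 13, 42614032 to 42615918; others 95.6). SUP-B15 was at 3.37 in 1p36.11 (chromosome 1, 27190830 to 27192216; others 89.7), the band of SFN, which encodes the 14-3-3 sigma adaptor. HPB-ALL was at 19.5 in 18q21.1 (chromosome 18, 46474780 to 46479199; others 97.3), the band of the TGF-beta pathway inhibitor SMAD7. This region was 4420 bp long with 34 peaks, and the other T-ALL lines stood there at percentiles 97.4 to 99.9. DND41 was at 7.52 in 15q24.1 (chromosome 15, 74832804 to 74834536; others 87.4), JURKAT at 12.6 in 11q13.1 (chromosome 11, 65121959 to 65123499; others 90.4) and SIL-ALL at 22.3 in 14q11.2 (chromosome 14, 23525756 to 23527572; others 85.8). Without replicates, such a value cannot be told apart from variation between libraries. The regions named for HPB-ALL, JURKAT, SIL-ALL and REH had no base under peaks of all 7 lines. In them the percentiles may come from peaks at different places in the region.

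Not every all-line region was a single site. In 406 of the 709 (57.3%) at least 1 base lay under peaks of all 7 lines. In the other 303, peaks were chained, with at most 6 lines over any base in 224, at most 5 in 72 and at most 4 in 7. The stretch common to all lines had a median of 152 bp (quartiles 89.3 and 225 bp), or 8.36% of the region. Regions with such a stretch had a median of 85.2 for the mean percentile, and those without it 71.5. The longest common stretches were 1780 bp in the 16p11.2 region described first, 1105 bp in 17q21.31 (chromosome 17, 41400086 to 41401291) and 825 bp in the 16p13.3 region. The 17q21.31 region was called once in every line, but stood at percentile 79.1 in DND41, 60.8 in HPB-ALL and 10.0 in K562, beside 95.2 to 97.5 in the remaining lines. The label of a region bound in all lines thus holds at the level of a single base for the 406 only.

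The lines differed in how a region was divided into peaks. The T-ALL lists had 2.57 (DND41), 2.17 (HPB-ALL), 2.41 (JURKAT) and 2.29 (SIL-ALL) peaks per all-line region, against 1.76 in SUP-B15, 1.83 in REH and 1.36 in K562. The mean was 2.36 ± 0.169 in the T-ALL lines (SD, n = 4) and 1.65 ± 0.252 in the others (SD, n = 3), a difference of 0.711 peaks. Over the 402 all-line regions that lists of equal length gave, the difference was 0.0970 peaks. Peak numbers, peak widths and covered shares come from the same peaks that chose the regions, so they are given as descriptions with no test. DND41, the line with the fewest single-peak regions, had a single peak in 172 of the 709 regions, against 506 for K562. In 123 regions (17.3%) 1 DND41 peak overlapped at least 2 separate K562 peaks, and in 384 (54.2%) 1 K562 peak overlapped at least 2 of DND41.

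Peaks within all-line regions had median widths of 341 bp in SIL-ALL, 294 bp in DND41, 306 bp in JURKAT and 366 bp in HPB-ALL, against 415 bp in SUP-B15, 663 bp in K562 and 249 bp in REH. K562 was the widest and REH the narrowest. The T-ALL medians averaged 327 ± 32.9 bp (SD, n = 4) and those of the other lines 442 ± 209 bp (SD, n = 3), with the other lines on both sides of the T-ALL lines. The difference was -115 bp, -5.00 bp without K562 and -212 bp without REH. It was 35.3 bp, in the opposite direction, over the 402 all-line regions that lists of equal length gave. In every list, peaks inside all-line regions were wider at the median than peaks outside them, for example 341 bp inside and 216 bp outside in SIL-ALL, and 663 bp inside and 530 bp outside in K562. A wider peak meets peaks of other lists more readily, so the rule itself favours this order.

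REH covered far less of these regions than any other line. The peaks of a line covered a median of 67.4% of the region in SIL-ALL, 62.5% in DND41, 55.0% in JURKAT and 66.9% in HPB-ALL, against 51.7% in SUP-B15, 64.5% in K562 and 26.0% in REH. T-ALL lines averaged 63.0 ± 5.73% (SD, n = 4) and the others 47.4 ± 19.6% (SD, n = 3), a difference of 15.6 percentage points, with K562 within the range of the T-ALL lines. It was 4.89 points without REH and 24.1 points without K562. At their centre 69.3 to 80.7% of all-line regions lay under a peak of each T-ALL line, against 78.8% in K562, 70.9% in SUP-B15 and 43.3% in REH. At 1000 bp on either side the share was between 10.4 and 15.1% in the other lines, while REH had 6.77% on the left and 6.35% on the right. The median region was 1695 bp wide, so most regions end before 1000 bp from their centre. The fall toward the flanks is thus in part set by where the regions end.

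**Figure D3:**
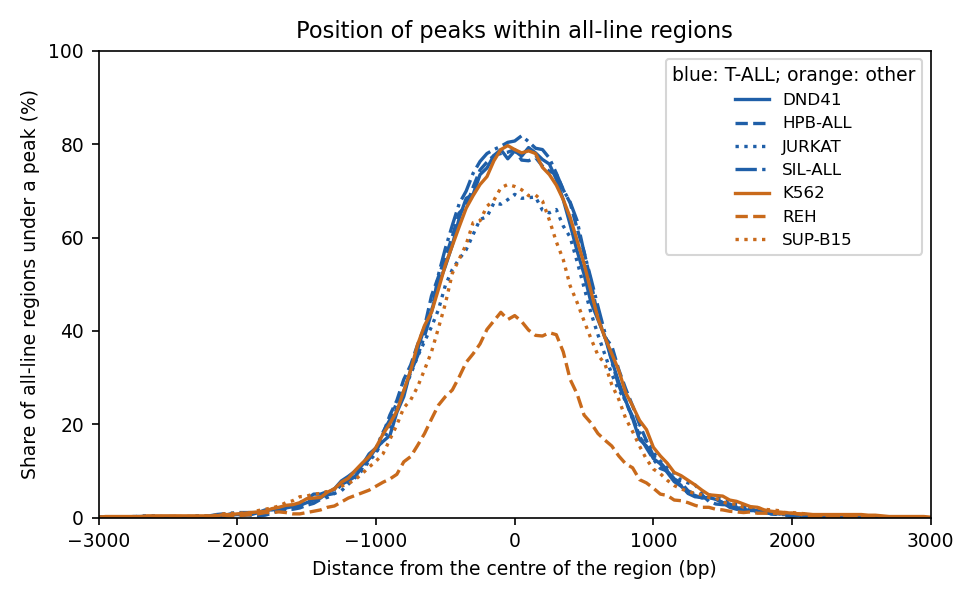
Share of the 709 all-line regions that lie under a peak of each line (%), by distance from the centre of the merged region (bp); blue lines are T-ALL, orange lines the others. Peaks covered 69.3 to 80.7% of region centres in each T-ALL line and in K562 and SUP-B15, and 43.3% in REH.

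For each pair of lines, the best peaks overlapped in most of these regions, an outcome that the merging of overlapping peaks favours. In pairs of T-ALL lines they overlapped by at least 1 bp in 558 to 627 of 709 regions (78.7 to 88.4%), in pairs among K562, REH and SUP-B15 in 485 to 600 (68.4 to 84.6%), and in pairs between the sides in 443 to 625 (62.5 to 88.2%). JURKAT with REH shared fewest and DND41 with SIL-ALL most. K562, with the widest peaks, overlapped SIL-ALL and HPB-ALL in 625 regions each, close to the T-ALL pairs. The midpoint of a line's best peak lay a median of 162 bp (DND41) to 226 bp (REH) from the median midpoint of the other lines.

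All-line regions took up 12.2% of the list of DND41 (Wilson 95% interval 11.7 to 12.7%), 12.1% of HPB-ALL (11.5 to 12.6%), 11.5% of JURKAT (11.03 to 12.1%) and 10.6% of SIL-ALL (10.1 to 11.1%). They took up 16.2% of K562 (15.3 to 17.2%), 15.9% of REH (15.1 to 16.7%) and 16.6% of SUP-B15 (15.8 to 17.4%), whose lists are shorter. These intervals cover counting error only. With 5942 top-scored peaks from every list, 402 regions were all-line. Their shares were 11.1 to 12.32% in the T-ALL lines, against 11.6% in SUP-B15, 9.41% in K562 and 11.9993% in REH. The higher share of the other lines was thus not seen there. For the 709 regions, among the 100 top-scored peaks of each list the shares were larger and the order turned. Of these 100, 59 lay in all-line regions in SIL-ALL, 68 in DND41, 50 in JURKAT and 65 in HPB-ALL, against 42 in SUP-B15, 30 in K562 and 38 in REH. In SUP-B15, K562 and REH most of the 100 thus lay outside the regions held by all lines.

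Just outside the rule were 1116 regions with a peak in 6 of the 7 lines. All-line regions had a median width of 1695 bp and a median mean percentile of 79.5, and these had 1287 bp and, over their 6 lines, 71.2. DND41 was the absent line in 23, HPB-ALL in 107, JURKAT in 43 and SIL-ALL in 70, against 325 for K562, 367 for REH and 181 for SUP-B15. Each T-ALL line, with its longer list, was absent from fewer of these regions than each of the other lines. In 19 of the 367 regions without REH a REH peak lay within 500 bp, and in 14 of the 325 without K562 a K562 peak did. The strongest region without REH lay in 1p34.2 (chromosome 1, 43423031 to 43424842; mean percentile 97.3), and the strongest without SUP-B15 in 15q26.3 (chromosome 15, 99191635 to 99194285; 96.6). In 2q13 (chromosome 2, 111874653 to 111880907) the other 6 lines averaged percentile 99.5 with scores of 2842 in SIL-ALL, 1315 in DND41 and 2052 in JURKAT, against 1393 in SUP-B15, 593 in K562 and 499.6 in REH, and HPB-ALL had no peak.

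**Figure D4:**
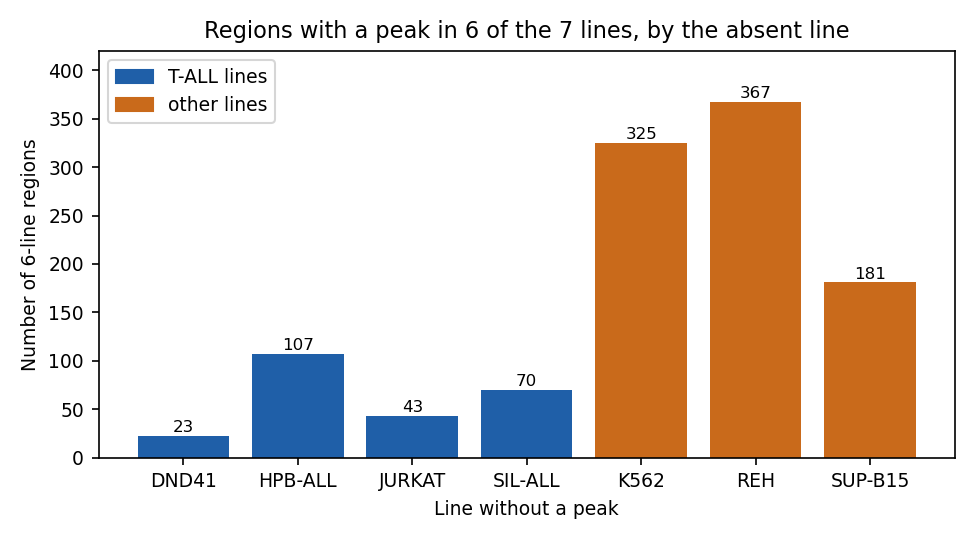
Number of regions with a peak in exactly 6 of the 7 lines, by the line that had none; blue bars are T-ALL lines and orange bars the others. DND41 was absent from 23 and REH from 367.

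All-line regions were spread over 335 of the 862 bands of hg19, and 173 of those bands held 1. They were seldom neighbours: 68 pairs of consecutive regions lay less than 100000 bp apart and 9 less than 2000 bp. Giemsa-light bands, which make up 42.2% of hg19, held 67.4% of all-line regions (Wilson 95% interval 63.9 to 70.8%) and 65.4% of all merged regions (64.8 to 65.9%). The last 5 Mb of chromosome ends held 17.9% (15.3 to 20.9%) and 19.4% (19.0 to 19.9%). The intervals of all-line and merged regions overlapped in both measures. Among bands with 9 or more all-line regions, their share was highest in 12q24.31, with 14 of 174 merged regions. The next were 3q29, with 9 of 118, and 6p21.1, with 9 of 134. The share was lower in 19p13.3, the band with 537 merged regions, of which 9 were all-line. Some bands with fewer all-line regions had higher shares, such as 1q42.12 with 5 of 50.

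By chromosome, the share of merged regions that were all-line was 3.71% on chromosome 21 (16 of 431, 2.30 to 5.94%) and 3.28% on chromosome 8 (2.37 to 4.52%). Both intervals include the share over all merged regions, 2.44%. On chromosome 1 the share was 3.18% (91 of 2865), with an interval above 2.44% (2.59 to 3.88%). The share was 1.31% on chromosome 19 (28 of 2140, 0.907 to 1.88%), the chromosome richest in genes for its length. Set against the protein-coding genes of RefSeq (GRCh38.p14), chromosome 19 held 19.3 all-line regions per 1000 genes and chromosome 21 held 66.9. Chromosome X had 1 all-line region among 279 merged regions (0.358%, 0.0633 to 2.002%). X peaks made up 0.411 to 0.797% of the T-ALL lists, against 0.606% of K562, 0.221% of REH and 0.319% of SUP-B15. REH had 18 peaks on X, which bounds the number of all-line regions there. Copy number was not used here, and its part in these shares was not tested.

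**Figure D5:**
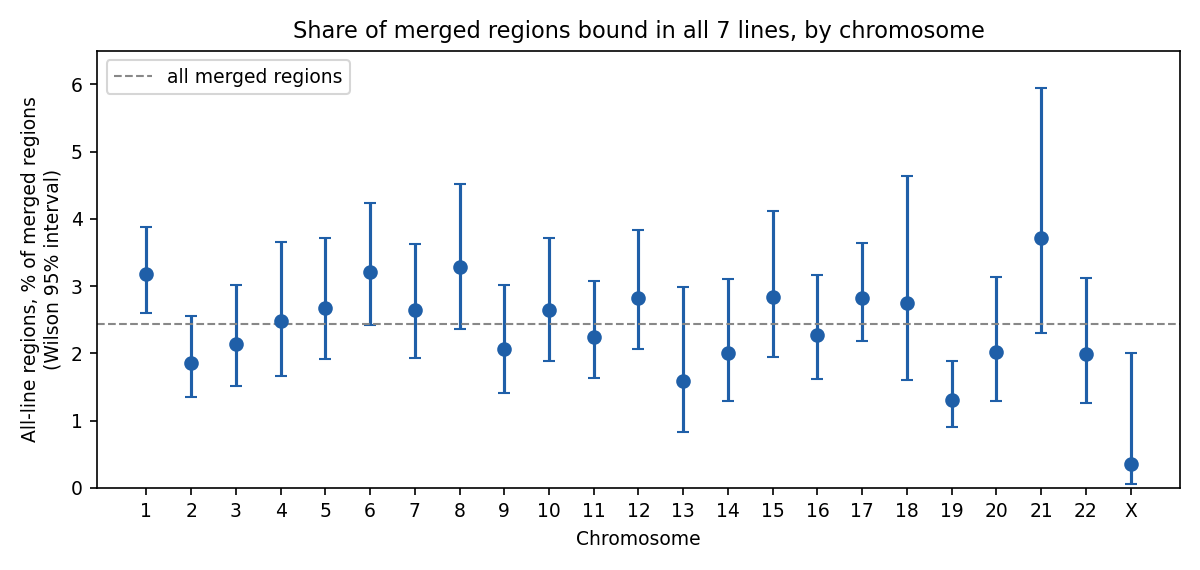
Share of merged regions that were all-line on each chromosome (%, points) with Wilson 95% intervals; the dashed line is the share over all merged regions, 2.44%. Chromosome X stood at 0.358% and chromosome 19 at 1.31%.

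The single region on X lay in Xp11.4 (chromosome X, 39956444 to 39958709), the band of BCOR, which encodes a core subunit of the same PRC1.1 complex as KDM2B. It was singled out after its count was seen. Its scores were 1385 in SIL-ALL, 358 in DND41, 162 in JURKAT and 549.99 in HPB-ALL, against 206 in SUP-B15, 77.6 in K562 and 68.7 in REH. The T-ALL lines were at percentiles 84.3 to 99.0, SUP-B15 at 91.3, REH at 51.6 and K562 at 43.5. It held 23 peaks in 2266 bp, with 134 bp under peaks of all lines.

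The 2 widest all-line regions were on chromosome 22, and K562 had its highest percentile of the 7 lines in both. The region in 22q11.21 (chromosome 22, 19704680 to 19712637) spanned 7958 bp. Its scores were 130.2 in SIL-ALL, 108 in DND41, 97.4 in JURKAT and 508 in HPB-ALL, against 79.99 in SUP-B15, 2731 in K562 and 115 in REH, and it held the top peak of the K562 list. The region in 22q11.23 (chromosome 22, 23520580 to 23526482), the band of BCR, spanned 5903 bp. It scored 642 in SIL-ALL, 179.8 in DND41, 87.5 in JURKAT and 739 in HPB-ALL, against 142 in SUP-B15, 1595 in K562 and 97.1 in REH. BCR is the partner in the BCR-ABL1 fusion, which K562 and SUP-B15 carry; SUP-B15 stood at percentile 83.4 there and K562 at 99.98. Neither region had a base common to all lines. The region in 9q34.13 (chromosome 9, 134148518 to 134153817) spanned 5300 bp, with every line at percentile 93.3 or above. In 1p36.33 (chromosome 1, 857173 to 862383), at 5211 bp, HPB-ALL was at percentile 49.2 and the other lines were at 98.7 or above.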

How the data were processed

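KDM2B ChIP-seq peak lists of 7 human leukaemia cell lines were analysed, 1 list per library. Per the submitters' processing notes, Bowtie 1.1.1 aligned the reads to hg19 and FastQC 0.10.1 was used for read quality. Peak names begin with MACS; its version, its cut-off and the control library are not given in any source used here. The score of each peak is the authors' own deposited value, with no scale stated, and was used only to rank peaks within a list, except with a common score floor, which assumes one scale. Depth is unknown. The lists had different score floors: 80 for SIL-ALL and HPB-ALL, 60 for DND41, and 50 for the remaining 4 lists, in whole numbers.

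Percentiles are the share of a list at or below a score. Widths, peaks per region, covered shares and percentiles were set side by side for the 4 T-ALL and the 3 other lines. The planned permutation tests of them are not given, because the same peaks, listed by their scores, chose the regions. Members, named regions and comparisons were chosen with earlier results of these data known. Regions named were the 10 with the highest mean percentile, the 5 widest, the 5 with the largest and the 5 with the smallest T-ALL minus other difference, the 3 lowest, the 3 with the longest common stretch, and for each line the 1 farthest below the other 6. Positions are counted from 1. Bands were assigned by midpoint, from the hg19 cytobands that the circlize package (0.4.16) for R holds. Gene counts per chromosome come from RefSeq (GRCh38.p14). Neither gene positions nor sequence of hg19 were used here, so regions were not assigned to genes and the planned count of start sites was not made. The counting was tested on simulated lists. Python 3.11.15, numpy 2.4.6, pandas 2.3.3, scipy 1.17.1 and matplotlib 3.10.9 were used.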

Additional observations from a re-analysis of the deposited data

Results flagged for a closer look

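Values per line over the all-line regions were searched for a single distant line, both among the 7 lines and among the 4 T-ALL lines. A line was taken as distant by Dixon's ratio, its gap to the next line divided by the range of the set. Of 22 sets of values, 4 held such a line. No number by chance can be set beside this count, because the values come from the same peaks that chose the regions. The sets are also related, since the 4 T-ALL lines are among the 7. The values that follow are therefore descriptions. K562 peaks had a median width of 663 bp, while the second widest, those of SUP-B15, had 415 bp and the narrowest, those of REH, 249 bp. The median covered share in REH was 26.0%, next to 51.7% in SUP-B15 and up to 67.4% in SIL-ALL. Among the T-ALL lines, JURKAT had the lowest median percentile, 89.1, next to 92.4 in HPB-ALL and up to 93.0 in DND41. JURKAT also had the fewest of its 500 top-scored peaks in all-line regions, 180, next to 229 in SIL-ALL and up to 239 in HPB-ALL. With ratios of 0.834 for the percentile and 0.831 for the top-scored peaks, JURKAT only just passed the limit for 4 lines. That limit serves here as a cut-off and not as a test. The causes were not tested.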

How the results depend on the processing

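No paired analysis was possible because there is a single list per line. The number of all-line regions was 402 with equal lists, 288 with peaks at or above their list's median score, 276 with a common score floor and 406 with a common base required. With each line left out of the merging it ranged from 724 to 1072 (without REH). For the differences that follow, a line left out was only dropped from its group's mean, and the 709 regions were kept. With lists cut by length or score, regions were merged and percentiles ranked anew. The number with a base under all lines was 248 with equal lists and 191 with the common floor, and regions of 6 lines numbered 677 with equal lists. The T-ALL minus other difference in percentile was 8.11 with equal lists, 17.6 with each list's median score as a minimum, 19.7 with the common floor, 11.5 with a common base required, and 13.3 to 17.001 with each line left out. For peaks per region it was 0.0970 with equal lists, 0.419 with each list's median score as a minimum, 0.567 for T-ALL against B-ALL lines and 0.567 to 0.799 with each line left out. The causes were not tested. For peak width it turned to 35.3 bp with equal lists, and ranged from -212 to -5.00 bp with each line left out. For the covered share that range was 4.89 to 24.1 points. Of 75 alternative values, 60 moved by less than the spread between lines or, for counts, by less than 1.5 times. Leaving out K562 and setting T-ALL against B-ALL lines are the same calculation, but both were counted. The spread was wide for peak width and covered share. Differences of -5.00 bp without K562 and 4.89 points without REH were thus counted as not moved. Of the 35 named regions, 13 stayed all-line with equal lists, 12 with each list's median score as a minimum, 17 with the common floor and 35 with a 500 bp merging distance. Library depth is unknown, so a line's absence from a region is not shown to be absence of binding.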

Other observations

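Within the all-line regions, the median rank of a line on some chromosome arms differed from its median elsewhere. This was examined after the data were seen, on the 29 arms with at least 10 all-line regions, as medians per line with no test. Of the 203 values of a line on an arm, the 10 farthest from the line's median elsewhere follow. K562 stood at a median percentile of 52.1 in the 10 regions of 19q (74.5 elsewhere), 52.4 in the 19 of 14q (74.8 elsewhere), 55.1 in the 24 of 8q (74.7 elsewhere), 55.4 in the 10 of 7p (74.4 elsewhere) and 56.6 in the 10 of 4p (74.7 elsewhere). REH was at 56.0 in the 14 regions of 4q (75.8 elsewhere) and 58.3 in the 27 of 7q (76.6 elsewhere), but reached 91.8 in the 16 of 21q (75.2 elsewhere). SUP-B15 was at 61.6 in the 14 regions of 4q (81.9 elsewhere) and at 97.7 in the 24 of 8q (80.4 elsewhere), where it had the highest of the 7 percentiles in 11. The regions of a line share its library. Copy number was not used here and its part was not tested.

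The region of 6 lines with the highest mean percentile lay in 21p11.2 (chromosome 21, 9825451 to 9827610). It scored 3100 in all 4 T-ALL lists, against 1357 in REH and 1463 in SUP-B15, and K562 had no peak there. No all-line region lay on 21p. No sites were filtered out of the lists here and the inputs were not used. Whether the signal in 21p11.2 reflects KDM2B binding was therefore not tested.

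On the same 29 arms, REH lacked a peak in 57.1% of the regions of 10q that the other 6 lines had (16 beside 12 all-line regions) and in 52.4% of those of 4p (11 beside 10), against 34.1% over all arms. K562 lacked one in 53.8% on 10q (14 beside 12) and in 52.5% on 14q (21 beside 19), against 31.4% over all arms. Arms on which a line often lacks a peak have fewer all-line regions, so the minimum of 10 can leave them out. Among arms left out, K562 lacked a peak in 69.6% on 17p (16 beside 7), 61.5% on 20p (8 beside 5) and 59.1% on 13q (13 beside 9). On 12p, which held 1 all-line region, REH lacked one in 83.3% (5 beside 1) and K562 in 80% (4 beside 1). SIL-ALL and SUP-B15 lacked one in 50% each on that arm (1 beside 1). In HPB-ALL the highest such share was 35.7% on 16q (10 beside 18), against 13.1% over all arms.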
